A study of Mus musculus with 16 samples.

Results

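Chromosome 4 carried 14389 of the 208518 trans listings that 16 4C-seq libraries of mouse embryonic fibroblasts gave, where a listing is 1 restriction site named in 1 library. The sites were chosen by position alone: every listed site on chromosome 4 at any mm9 coordinate was taken, from the lists of all libraries. Listings whose intervals overlap were counted as 1 site, which gave 7356 distinct sites between 10806422 and 154571193. A site is trans where it lies on another chromosome than the promoter used as bait. The lists held 327988 listings in all, cis included.

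The bait, or viewpoint, was the bidirectional promoter of Pole and Pxmp2 on chromosome 5 or that of Cdca3 and Usp5 on chromosome 6. Pole encodes the catalytic subunit of DNA polymerase epsilon, Pxmp2 a peroxisomal membrane protein, Cdca3 a protein of cell division and Usp5 a deubiquitinating enzyme. The cells were fibroblasts from E13.5 embryos, proliferating at passage 4, homozygous for the Rb1L allele (Rb1L/L) or with an intact gene (Rb1+/+). Rb1 encodes pRb, a brake on the cell cycle. From other work, Rb1L encodes a pRb with a changed cleft for proteins that carry an LXCXE motif. Each viewpoint had 4 libraries of each genotype, in 4 numbered pairs of cultures, and the same pair identifiers recur across viewpoints. A pair and genotype was therefore treated as 1 culture, 8 in all. The labels do not say what the members of a pair share, so p-values measure the spread between these cultures only. The site lists hold no expression values, and the labelled cell type could not be set against marker genes. The title of the series asks how pRb recruits condensin II, a chromosome-compacting complex, to promoters, and the genotype comparison addresses whether promoter contacts change with the Rb1L allele.

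In 4C-seq, crosslinked chromatin is cut and ligated, and the fragments joined to the bait are amplified and sequenced. Each chromosome occupies its own territory in the nucleus, and contacts between chromosomes are known to form mostly among gene-rich, active stretches at territory surfaces. Mouse chromosomes have their centromere at one end, so low coordinates are centromeric and high ones telomeric. The telomeric part of chromosome 4 is known to be gene-rich, and it corresponds to the end of the short arm of human chromosome 1. No mm9 annotation was used, so windows are given by position and no gene is assigned to one.

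The promoter from which the Cdca3 libraries looked out is shown because each of their contacts is a contact of this locus. RefSeq gives it at chr6:124829926-124830225 of GRCm38.p6, plus strand, from 250 bases before the gene's start to 50 after it. Capitals mark the CATG that NlaIII, the second enzyme of the assay, cuts.
Cdca3: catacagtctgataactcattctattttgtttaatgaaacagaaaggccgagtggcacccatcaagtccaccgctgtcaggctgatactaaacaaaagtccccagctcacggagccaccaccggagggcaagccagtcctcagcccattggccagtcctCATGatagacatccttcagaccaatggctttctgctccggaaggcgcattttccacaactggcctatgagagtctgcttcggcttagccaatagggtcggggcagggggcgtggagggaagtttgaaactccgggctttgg
These 300 bases hold 1 CATG, whose letters read the same on both strands, and 0 AAGCTT, the site of the first enzyme HindIII. Among 32851 promoters of this length, 61.1% hold a CATG and 7.45% an AAGCTT. The ends of the bait fragment are not known here.

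The libraries differed in yield. Pole libraries listed 2616 to 8899 trans sites and Cdca3 libraries 10537 to 30028. The first pair of cultures gave the shortest trans list for each genotype at both viewpoints. With no read counts in the lists, depth is unknown and list length is the only measure of yield. Chromosome 4 had 243 to 589 sites in a Pole library and 914 to 2024 in a Cdca3 library. The Rb1+/+ Pole library of pair 1 stood apart, with 326 sites beyond 120 Mb and 9 in the rest of the chromosome.

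Both promoters contacted chromosome 4 in an uneven pattern, with most listed sites beyond 120 Mb, the part called distal below. Of 310 windows of 500 kb, 171 held no site in any library, and these comprised 15 of the 70 distal windows and 156 of the 240 others. The distal part spans 34.6 Mb up to the last listed site, 24.0% of the stretch that holds sites, against 109 Mb for the rest. It held 62.5% ± 19.6 of a library's chromosome 4 sites at Pole and 62.3% ± 6.33 at Cdca3 (SD, n = 8 each). The boundary was proposed with these values known, so the contrast between the distal part and the rest is a description and carries no test.

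**Figure D1:**
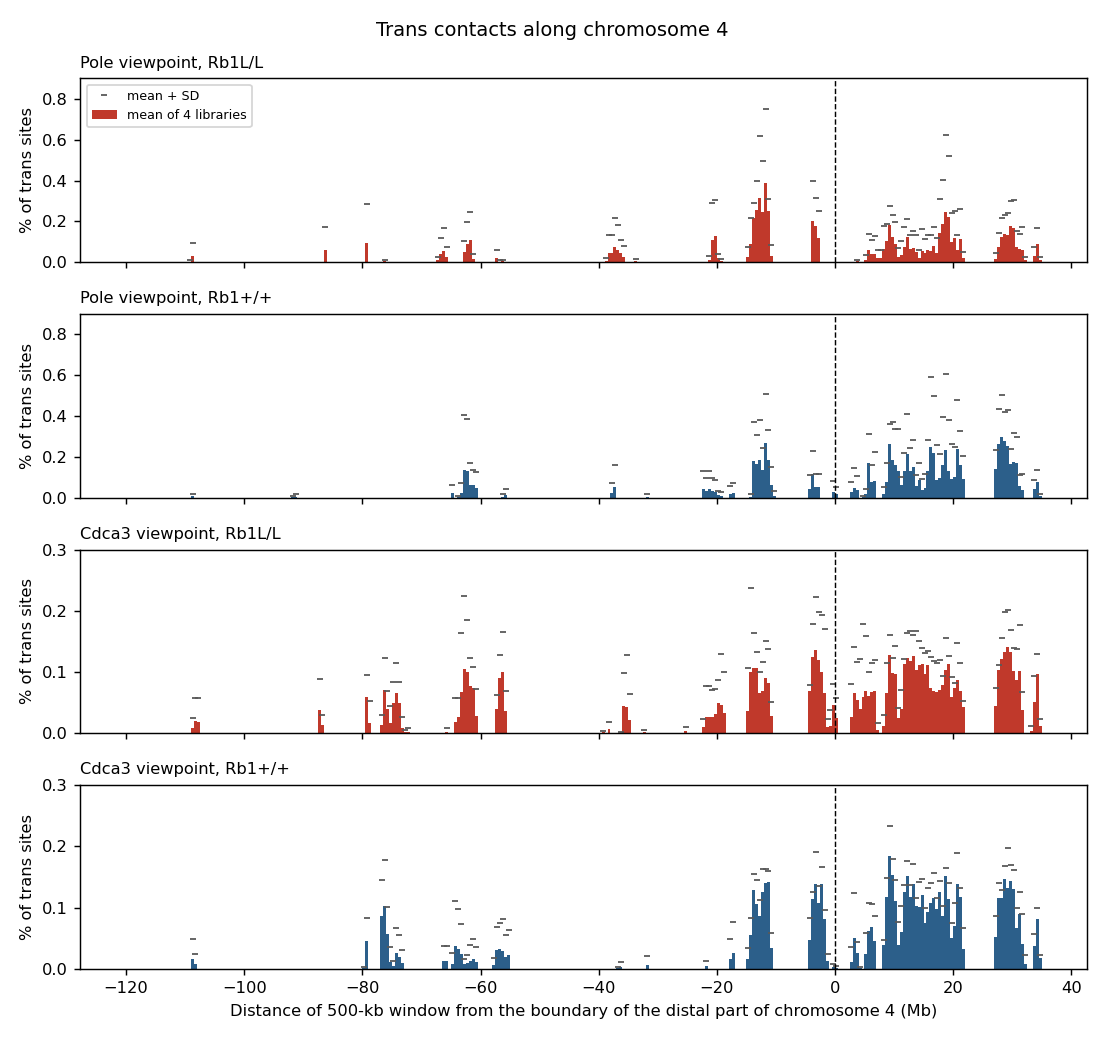
Share of a library's trans sites in each 500-kb window of chromosome 4, as the mean of 4 libraries (bars) and the mean plus SD (ticks), against the distance in Mb from the boundary of the distal part (dashed line, distal to the right). The upper and lower pairs of panels have different vertical scales. In all 4 groups the bars stand in a few blocks, with the widest block to the right of the line.

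Site density showed the same contrast. At Pole it was 8.22 ± 2.80 sites per Mb in the distal part and 1.58 ± 0.885 in the rest. At Cdca3 it was 24.0 ± 6.40 and 4.69 ± 1.77 (SD, n = 8 each). The distal density exceeded that of the rest in every library. The ratio had a median of 4.89 at Pole, with a range from 1.89 to 114, and a median of 5.39 at Cdca3, with a range from 3.26 to 7.45. The highest Pole ratio belonged to the Rb1+/+ library of pair 1 with its 9 sites outside the distal part. Without that library the Pole ratios ended at 11.8.

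The boundary runs through a sparse stretch. The window from 120 to 120.5 Mb, just inside the distal part, had a mean of 0.00878% of trans sites at Pole, from 1 library, and 0.0130% at Cdca3, from 3. The window from 119.5 to 120 Mb, just outside, had 0.0140% at Pole, also from 1 library, and 0.0244% at Cdca3, from 4. From 120.5 to 122.5 Mb no library listed a site. Neither edge window was densely contacted.

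The regions that the authors called significant, a second list for each library, gave the contrast in bases in place of sites. They covered 60.9% ± 18.9 of the distal part and 13.1% ± 4.86 of the rest at Pole, and 81.0% ± 4.99 and 24.2% ± 6.50 at Cdca3 (SD, n = 8 each). Each listed site lies in such a region, so this measure is not independent of the site lists. At Pole 4.34 Mb lay in a region in every one of the 8 libraries, 2.74 Mb of it distal. At Cdca3 this was 29.5 Mb, 23.2 Mb of it distal.

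The deposited value of a site, a p-value or q-value that is lower for stronger evidence, was also lower in the distal part. A value under 0.01 was held by 67.0% of distal listings and 51.2% of other chromosome 4 listings at Pole, and by 54.1% of trans listings elsewhere. At Cdca3 the shares were 91.7%, 71.0% and 78.7%. The distal listings thus exceeded the pooled listings of the other trans chromosomes in this share, and those of the rest of chromosome 4 lay under them. The other chromosomes were not compared singly or by stretch. Neighbouring sites often carry the same value, so these shares have no error here.

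Other chromosomes gave a scale for the contrast. For each of 19 trans chromosomes, the span ran from its first to its last listed site. The share of its sites in the last 34.6 Mb of the span was divided by the share of the span in that stretch. Chromosome 4 had the highest ratio at both viewpoints, 2.60 at Pole and 2.59 at Cdca3. Chromosome 8 followed at Pole with 2.27, and chromosome 5 at Cdca3 with 2.45. The length of the stretch was set on chromosome 4, so its first rank carries no test. The highest value the ratio can take is lower for shorter chromosomes. By the undivided share of its own sites in the stretch, chromosome 4 ranked 4 at Pole and 3 at Cdca3. Chromosome 15 came first there, with 79.7% and 80.0% in a stretch that is 36.1% of its span. As a share of all trans sites, the distal part of chromosome 4 had 5.07% ± 2.33 at Pole and 4.25% ± 0.476 at Cdca3 (SD, n = 8 each), which placed it second and first of the 19 terminal stretches.

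**Figure D2:**
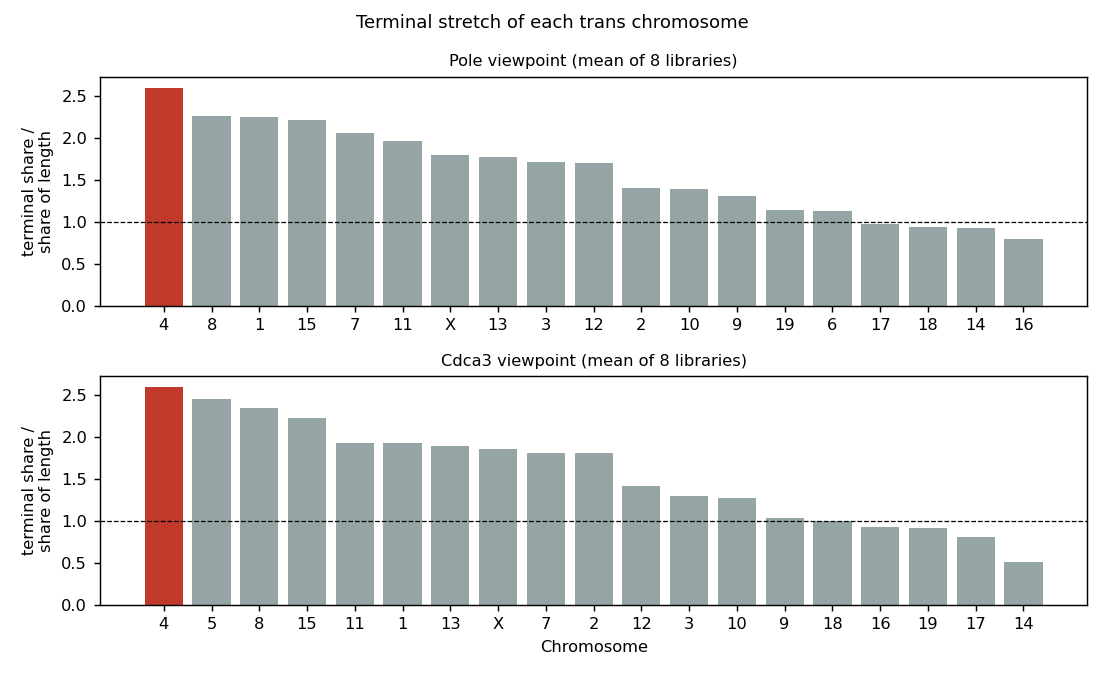
For each trans chromosome, the share of its sites in its terminal stretch divided by that stretch's share of its span, as the mean of 8 libraries per viewpoint. The stretch is as long as the distal part of chromosome 4, and the span, labelled length, runs from first to last listed site. The dashed line marks 1, where sites would be spread evenly. Chromosome 4 (red) comes first in both panels, at 2.60 and 2.59. The highest value the ratio can take is lower for shorter chromosomes.

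The sites fell into 13 blocks separated by at least 2 Mb without a listed site in any library. The longest, from 122.5 to 142.0 Mb, held 6338 listings and had sites in all 16 libraries. Its share of a library's chromosome 4 sites was 42.5% ± 16.7 at Pole and 45.1% ± 5.65 at Cdca3 (SD, n = 8 each). The last block, from 147.0 to 155 Mb, held 2547 listings from 15 libraries, with 19.8% ± 8.36 at Pole and 17.0% ± 1.80 at Cdca3. Its missing library was the Rb1L/L Pole library of pair 1. Between these blocks lay a 5.0-Mb stretch, from 142.0 to 147.0 Mb, in which no library listed a site, so the distal part was not contacted throughout.

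Outside the distal part, the block from 105.0 to 110 Mb was dense, with 1857 listings and sites in all 16 libraries. It held 19.04% ± 10.7 of chromosome 4 sites at Pole and 11.1% ± 1.70 at Cdca3. Per Mb it had 17.0 sites at Pole, against 9.65 in the block from 122.5 to 142.0 Mb. At Cdca3 the same densities were 29.5 and 31.0 sites per Mb. The rest of the chromosome was therefore not sparse throughout, and at Pole the densest block lay outside the distal part.

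The block from 115.5 to 120.5 Mb, which crosses the boundary by 0.5 Mb, held 1179 listings from 15 libraries. It took 5.29% ± 4.54 of chromosome 4 sites at Pole and 9.65% ± 2.45 at Cdca3. Further towards the centromere, the blocks were thinner and less often shared. The block from 40 to 48 Mb had sites in 2 of 8 Pole libraries and in 8 of 8 Cdca3 libraries, with 0.542% ± 1.45 and 5.73% ± 2.69 of their chromosome 4 sites. The block from 52.5 to 59.5 Mb had 5.73% ± 5.76 at Pole and 4.76% ± 3.67 at Cdca3. Blocks were drawn from the site lists themselves and were not tested. The longest stretches of windows empty in all libraries ran from 12.5 to 28.0 Mb and from 65.0 to 80.5 Mb, 15.5 Mb each, and from 0 to 10.5 Mb.

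Among single windows, those beyond 120 Mb with the highest mean share over the 16 libraries were at 129.0, 138.5, 148.5, 149.0 and 148.0 Mb (starts). The window from 129.0 to 129.5 Mb had the highest of these means, 0.189%, and was the only window of chromosome 4 with sites in all 16 libraries. Its shares of trans sites at Pole were 0.0765%, 0.291%, 0.135% and 0.216% in Rb1L/L libraries, against 0.377%, 0.196%, 0.309% and 0.172% in Rb1+/+ libraries. At Cdca3 they were 0.142%, 0.167%, 0.100% and 0.104% in Rb1L/L libraries, against 0.254%, 0.177%, 0.143% and 0.163% in Rb1+/+ libraries. The genotypes overlapped at Pole. At Cdca3 they overlapped less, with 1 Rb1L/L library above the lowest Rb1+/+ value.

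The window from 138.5 to 139.0 Mb had a mean of 0.183%, but 2 libraries carried much of it at Pole. The Pole shares were 0.803%, 0%, 0.0112% and 0.170% in Rb1L/L libraries, against 0.786%, 0%, 0.140% and 0% in Rb1+/+ libraries. Both high values came from pair 1, whose libraries listed the fewest trans sites. All 8 Cdca3 libraries had sites in this window, with means of 0.104% ± 0.0514 in Rb1L/L and 0.152% ± 0.0128 in Rb1+/+ libraries (SD, n = 4 each). The windows starting at 148.0, 148.5 and 149.0 Mb adjoin each other, and each had sites in 15 libraries, with means of 0.164%, 0.174% and 0.166%. The Rb1L/L Pole library of pair 1 had none in any of them.

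In the rest of the chromosome the 5 windows with the highest means all lay between 106.0 and 109.0 Mb. The window from 108.0 to 108.5 Mb had the highest mean of all chromosome 4 windows, 0.221%. Its shares at Pole were 0.917%, 0.291%, 0.225% and 0.108% in Rb1L/L libraries, against 0.0629%, 0.614%, 0.239% and 0.160% in Rb1+/+ libraries. At Cdca3 they were 0%, 0.127%, 0.118% and 0.114% in Rb1L/L libraries, against 0.159%, 0.159%, 0.127% and 0.116% in Rb1+/+ libraries. The Pole libraries of pair 1 were its extremes, and 1 Rb1L/L Cdca3 library had no site there. The other windows of this group, starting at 108.5, 107.0, 106.0 and 106.5 Mb, had means from 0.158% to 0.165% and sites in 14 or 15 libraries.

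Chromosome 4 held 6.04% of the trans windows with sites at Pole and 6.28% at Cdca3. Of the 100 windows with the highest mean share among 1804 with sites, 16 lay on chromosome 4, and 10 of those were distal. The window from 108.0 to 108.5 Mb ranked 3. At Cdca3, 7 of the first 100 among 2022 windows lay on chromosome 4, 6 of them distal, which is near its share of all windows. The window from 129.0 to 129.5 Mb ranked 14. The median share of a window with sites was 0.0907% in the distal part, 0.0217% in the rest and 0.0368% over all trans windows at Pole. At Cdca3 the medians were 0.0874%, 0.0219% and 0.0377%.

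Single restriction sites recurred less than windows did. Of the 7356 sites, 3712 (50.5%) were listed in 1 library and 896 (12.2%) in 4 or more. Among 3978 distal sites, 39.3% were listed in 1 library and 33.5% at both viewpoints. Among 3378 other sites, 63.6% were listed in 1 library and 16.4% at both viewpoints. The most recurrent site, from 148366737 to 148366742, was listed in 12 libraries, 4 of Pole and 8 of Cdca3. A site from 108256201 to 108256206 was listed in 10, all 8 of Pole and 2 of Cdca3. These sites were singled out after their values were seen. The shares were not adjusted for the number of sites in a stretch.

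The viewpoints contacted largely the same windows of chromosome 4. The sharing over all trans windows is not given here, so these shares are not read as particular to the chromosome. Pole libraries had sites in 109 windows and Cdca3 libraries in 127, of which 97 were shared, 89.0% of the Pole windows and 76.4% of the Cdca3 windows. In the distal part 52 windows were shared, 98.1% of 53 at Pole and 96.3% of 54 at Cdca3. In the rest 45 were shared, 80.4% of 56 at Pole and 61.6% of 73 at Cdca3. Every one of the 23 windows with sites in at least 6 Pole libraries had sites in at least 6 Cdca3 libraries, and these made up 34.3% of the 67 such Cdca3 windows.

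The mean shares of the viewpoints correlated over the 310 windows with r = 0.850 and rho = 0.814. The correlation was 0.878 over the 70 distal windows and 0.741 over the 240 others. Windows share their density of restriction sites and the 8 cultures across viewpoints, and windows empty at both viewpoints enter these values, so they are descriptions. Several windows of the rest departed from the common pattern. The window from 117.5 to 118.0 Mb had sites in all 8 Cdca3 libraries, with a mean of 0.120% ± 0.0666, and in 0 Pole libraries. Called Pole regions from 7 libraries, merged where they overlapped, nevertheless ran from 114860198 to 118448503 and so spanned it. The window from 108.0 to 108.5 Mb went the other way, with 0.327% ± 0.292 at Pole and 0.115% ± 0.0499 at Cdca3 (SD, n = 8 each). Both were singled out after their values were seen.

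**Figure D3:**
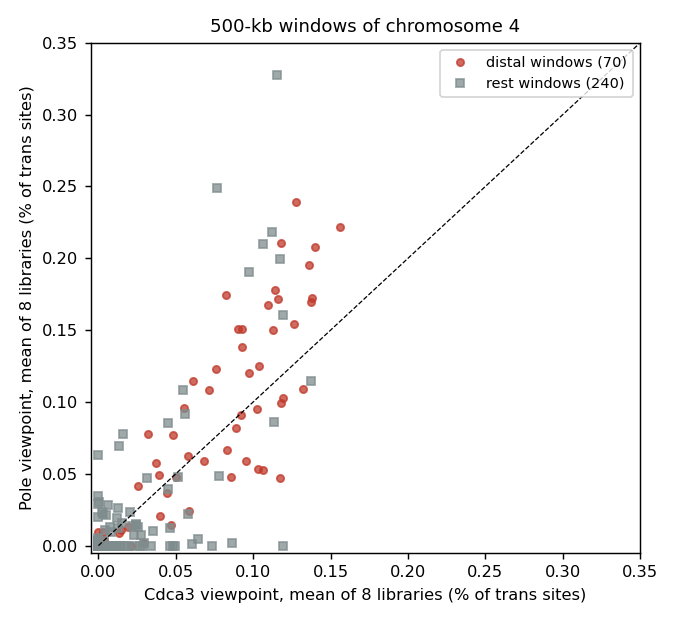
Mean share of trans sites in each 500-kb window of chromosome 4 at the Pole viewpoint (vertical axis) and at the Cdca3 viewpoint (horizontal axis), 8 libraries each, for 70 distal windows (red) and 240 others (grey). The dashed line marks equal shares. Windows with high shares at one viewpoint tend to have high shares at the other (r = 0.850), and the highest points at Pole lie above the line.

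The viewpoints were also compared over the 8 cultures, by an exact two-sided sign-flip test with Benjamini-Hochberg adjustment over 4 measures. The test takes the 8 cultures as independent, although they form 4 pairs. With the pair as the unit the smallest possible p would be 0.125, so no measure could be called. The chromosome 4 share of trans sites averaged 7.99% at Pole and 6.87% at Cdca3, a difference of 1.12 percentage points (95% interval 0.159 to 2.16). It was higher at Pole in 7 of 8 cultures (exact p = 0.0156, adjusted 0.0312). Without pair 1, 2 or 4 the differences were 0.865, 1.01 and 1.37 points (exact p = 0.0625 each). Leaving out a pair raises the smallest possible p to 0.0312, and these p-values were not adjusted. They therefore cannot show whether the difference rests on 1 pair. The distal share of chromosome 4 sites differed by 0.206 points (interval -11.0 to 13.4), which the test did not separate from 0 (exact p = 0.961). The distal share of trans sites was 0.819 points higher at Pole (interval -0.559 to 2.55, exact p = 0.242, higher in 6 of 8 cultures). Regions covered 24.6% of the chromosome's span at Pole and 37.8% at Cdca3, a difference of -13.2 points (interval -18.1 to -8.62). It was lower at Pole in 8 of 8 cultures (exact p = 0.00781, adjusted 0.0312). Without each pair in turn the exact p was 0.0312, unadjusted and the smallest possible there.

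List length moved with both called measures. Over the 8 Pole libraries the chromosome 4 share fell as the number of trans sites grew (r = -0.941, permutation p = 0.0026, adjusted over 8 relations 0.0187; rho = -0.905, permutation p = 0.00456, adjusted 0.0290). The value was -0.943 without the 2 libraries of most extreme length. Over the 8 Cdca3 libraries r was -0.567 (permutation p = 0.141, adjusted 0.225) with rho of -0.595 (permutation p = 0.132), and -0.808 without the 2 most extreme. The chromosome 4 share has the number of trans sites as its denominator, so these 2 quantities are not separate measurements. The permutation does not account for that. Region cover grew with list length at Pole (r = 0.896, permutation p = 0.00466, adjusted 0.0187; rho = 0.833, permutation p = 0.0154), and at Cdca3 r was 0.794 (permutation p = 0.0191, adjusted 0.0511; rho = 0.881, permutation p = 0.00724). Without the 2 most extreme libraries the cover values were 0.696 and 0.591. The distal share of chromosome 4 sites had r of -0.145 at Pole and -0.0983 at Cdca3 (permutation p = 0.732 and 0.814), with rho of 0.0476 and -0.310. All Pole lists were shorter than all Cdca3 lists, so viewpoint and list length cannot be told apart in the viewpoint differences.

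**Figure D4:**
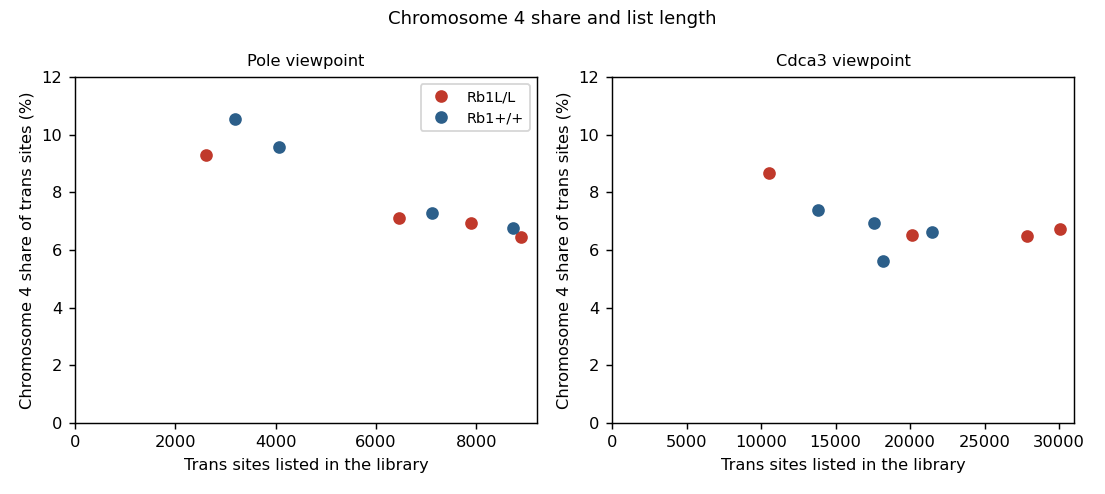
Chromosome 4 share of trans sites (vertical axis, percent) against the number of trans sites a library lists (horizontal axis, with a different scale in each panel), 1 point per library, Rb1L/L in red and Rb1+/+ in blue. At Pole the share runs from 10.5% in a library with 3180 trans sites to 6.44% in the library with 8899.

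At each viewpoint the 4 Rb1L/L libraries were set against the 4 Rb1+/+ libraries by exact two-sided permutation of the labels (70 assignments), with a smallest possible p of 0.0286 and adjustment over 8 comparisons. None of the 8 passed, adjusted or not, and the smallest exact p was 0.0571. A single comparison at the smallest possible p would not have passed the adjustment over 8, so the adjusted outcome decides little. At Pole the chromosome 4 share of trans sites was 9.29%, 6.94%, 6.44% and 7.11% in Rb1L/L libraries, against 10.5%, 9.58%, 7.28% and 6.75% in Rb1+/+ libraries. The groups overlapped, with a difference of -1.09 points (95% interval -4.10 to 2.54, exact p = 0.286, adjusted 0.457). It was -0.421 points without the Rb1+/+ library of pair 1 and -1.70 without the Rb1L/L library of pair 1. At Cdca3 the shares were 8.67%, 6.74%, 6.47% and 6.52% in Rb1L/L libraries, against 7.40%, 6.92%, 5.62% and 6.63% in Rb1+/+ libraries. They overlapped too, with a difference of 0.459 points (interval -0.930 to 3.06, exact p = 0.600, adjusted 0.686). The signs of both differences turned when only sites with a deposited value under 0.01 were used (0.290 and -0.174 points).

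The distal share of chromosome 4 sites was lower on average in Rb1L/L libraries at both viewpoints, with no call. At Pole it was 37.4%, 39.1%, 61.4% and 78.9% in Rb1L/L libraries, against 97.3%, 59.5%, 66.0% and 60.1% in Rb1+/+ libraries. The means were 54.2% ± 19.8 and 70.7% ± 18.0 (SD, n = 4 each), and the groups overlapped. The difference was -16.5 points (interval -59.9 to 19.4, exact p = 0.257, adjusted 0.457), and -2.07 points without pair 1. At Cdca3 the share was 50.8%, 57.4%, 60.0% and 65.2% in Rb1L/L libraries, against 70.2%, 66.4%, 67.5% and 60.5% in Rb1+/+ libraries. The means were 58.4% ± 6.02 and 66.2% ± 4.08 (SD, n = 4 each), with 1 Rb1+/+ library inside the Rb1L/L range. The difference was -7.80 points (interval -19.5 to 4.71, exact p = 0.0571, adjusted 0.343), lower in Rb1L/L in 3 of 4 pairs, and -3.91 points without pair 1 (exact p = 0.200).

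**Figure D5:**
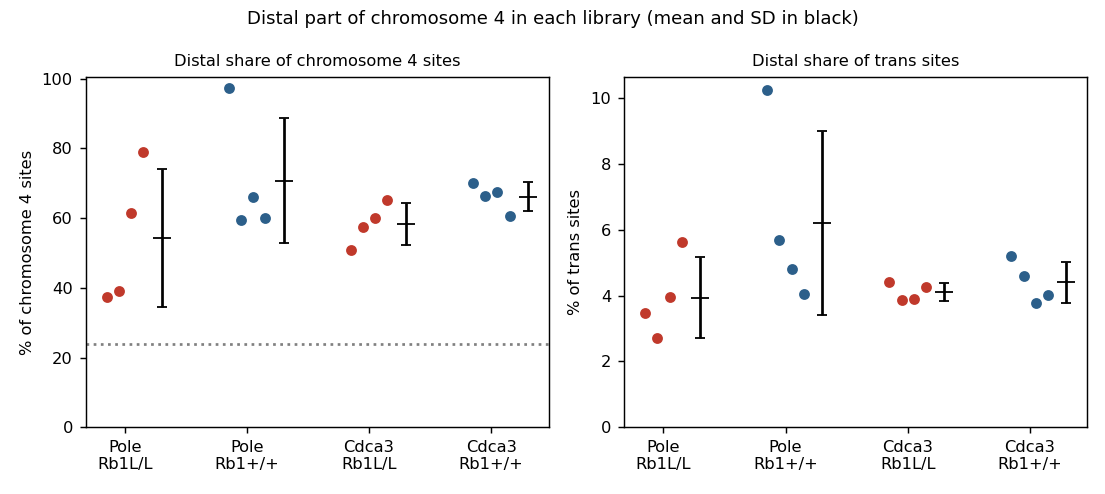
Distal share of chromosome 4 sites (left) and of all trans sites (right), in percent, 1 point per library in order of pair number, with the mean and SD of 4 libraries in black, Rb1L/L in red and Rb1+/+ in blue. The dotted line marks the distal share of the chromosome's span, 24.0%. Every library lies above it, from 37.4% to 97.3%, and the genotypes overlap at both viewpoints.

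As a share of all trans sites, the distal part had 3.94% ± 1.23 in Rb1L/L and 6.20% ± 2.78 in Rb1+/+ libraries at Pole (SD, n = 4 each). The difference was -2.26 points (interval -7.54 to 1.56, exact p = 0.143, adjusted 0.381), and -0.759 points without pair 1. At Cdca3 the shares were 4.10% ± 0.268 and 4.40% ± 0.631, a difference of -0.297 points (interval -1.33 to 0.615, exact p = 0.457, adjusted 0.610). Without the Rb1+/+ library of pair 1 it was -0.0316, and without that of pair 3 it was -0.500. The genotype difference at Pole minus that at Cdca3, tested over the 8 cultures, was -8.72 points for the share of chromosome 4 sites (interval -45.4 to 20.6, exact p = 0.486). For the share of trans sites it was -1.97 points (interval -6.22 to 1.32, exact p = 0.200), with -0.628 points without pair 1 and -3.06 without pair 4.

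Called regions covered 24.2% ± 7.10 of the span in Rb1L/L and 25.1% ± 8.20 in Rb1+/+ libraries at Pole (exact p = 0.8, adjusted 0.8, n = 4 each). At Cdca3 they covered 41.4% ± 4.03 in Rb1L/L and 34.2% ± 5.35 in Rb1+/+ libraries. This difference of 7.24 points (interval -4.32 to 17.0) had the same direction in 4 of 4 pairs but did not pass (exact p = 0.0857, adjusted 0.343). In the distal part the Cdca3 cover was 82.2% ± 5.22 in Rb1L/L and 79.7% ± 5.17 in Rb1+/+ libraries. In the rest it was 28.5% ± 4.01 and 19.8% ± 5.59. Rb1L/L Cdca3 libraries listed 10537, 30028, 27862 and 20116 trans sites, against 13802, 17562, 18162 and 21471 in Rb1+/+ libraries, and cover grew with list length as given above. The part of list length in this difference was not tested.

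Regions overlapping between libraries were merged, which gave 17 regions at Pole and 14 at Cdca3. Those called in all 8 Pole libraries ran from 104558645 to 110409325 and from 122113189 to 142547762. At Cdca3, 5 were called in all 8 libraries. They ran from 39799721 to 48697708, from 104378078 to 110193329, from 114820547 to 121076862, from 121799197 to 142774657 and from 146214084 to 155627021. Both Pole regions thus had a counterpart at Cdca3 in all libraries. The last of the Cdca3 regions overlapped a Pole region called in 7 libraries.

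In 3 regions one genotype had the call in 3 or more libraries and the other in 1 or none, and each leaned to Rb1L/L. At Pole the region from 96754034 to 101451750 was called in 3 Rb1L/L libraries and 1 Rb1+/+ library. At Cdca3 the region from 82645298 to 85957063 was called in 3 Rb1L/L libraries and 1 Rb1+/+ library, and that from 31802133 to 33855321 in 3 Rb1L/L libraries and 0 Rb1+/+ libraries. They are 1 of 17 merged regions at Pole, where 2.9% of 276 trans regions leaned to Rb1L/L and 0.362% to Rb1+/+. At Cdca3 they are 2 of 14, where 3.75% of 240 leaned to Rb1L/L and 1.67% to Rb1+/+. None of the 3 lies in the distal part, no test was run on single regions, and nothing is read from a count this small.

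The genotypes shared most windows of chromosome 4 as well, again without the sharing over all trans windows beside it. At Pole, Rb1L/L libraries had sites in 90 windows and Rb1+/+ libraries in 89, with 70 shared (77.8% and 78.7%). At Cdca3 the numbers were 117 and 103, with 93 shared (79.5% and 90.3%). In the distal part 46 of 49 Rb1L/L and of 50 Rb1+/+ windows were shared at Pole, and 50 of 53 and of 51 at Cdca3. The genotype means correlated over the 310 windows with r = 0.777 at Pole and r = 0.883 at Cdca3.

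Pairs of libraries gave the spread behind this. As windows shared over windows with sites in either, the overlap averaged 37.1% ± 13.53 between genotypes and 35.5% ± 12.4 within a genotype at Pole (SD over 12 pairs each, of different culture pairs). At Cdca3 it averaged 62.6% ± 8.88 and 66.0% ± 9.67. In the distal part the Cdca3 overlaps were 82.0% ± 13.6 and 81.5% ± 13.7, against 42.4% ± 7.96 and 48.3% ± 8.34 in the rest. Libraries enter several pairs, so these values are not independent and carry no test. In each of these comparisons the means between and within genotypes differed by less than 1 SD.

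Single windows were tested with limma across all trans windows in which the 8 libraries of a viewpoint listed at least 8 sites, on log2 of sites plus 0.5 per 1000 trans sites. At Pole 82 of the 109 chromosome 4 windows with sites were tested, and 0 passed an adjusted p of 0.05, where the background was 0% of 1346 trans windows. At an unadjusted p under 0.05, 1 window of 82 stood, against 2.3% of all trans windows. At Cdca3 112 of 127 were tested and 0 passed, with a background of 0% of 1732. Unadjusted, 8 of 112 stood, 4 higher and 4 lower in Rb1L/L, against 4.91% of all. This count rested on single libraries: it was 0 without the Rb1+/+ library of pair 1 (background 2.08%), 2 without that of pair 3, 3 without that of pair 2, 5 without that of pair 4, and 12 (6 higher and 6 lower) without the Rb1L/L library of pair 4. Without the Rb1L/L library of pair 1 it stayed at 8, with 1 higher and 7 lower. A window that passed the filter through 1 genotype alone tends to differ, so these counts are read only beside the background.

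Of the tested distal windows at Pole, 35 had a log2 fold change of Rb1L/L over Rb1+/+ below 0 and 12 above, where 50.1% of all trans windows were below. Their median log2 fold change was -0.72, against 0.88 in the rest of the chromosome and -0.0016 over all trans windows. Single libraries moved these medians: the Pole rest median was 0.31 without the Rb1+/+ library of pair 1 and 0.41 without the Rb1L/L library of pair 2, and the distal median was -0.43 without that Rb1L/L library. At Cdca3 30 were below 0 and 21 above, where 50.5% of all were below, and the medians were -0.09, 0.85 and -0.0093. With deposited values under 0.01, the distal windows split into 20 below and 20 above at Pole, and into 34 below and 15 above at Cdca3, where their median was -0.33. Half-widths of the 95% interval had a median of 2.89 on the log2 scale for distal windows at Pole and 1.63 at Cdca3, so differences below these sizes were not resolvable in a typical window. Neighbouring windows of a block are not independent members of these counts. The Rb1L/L Pole library of pair 1, for example, listed 0 sites from 147.0 to 155 Mb. Medians of the rest depended on the settings. With an added constant of 1 they were 0.65 at Pole and 0.64 at Cdca3, and with at least 1 site per window 0.44 and 0.47. No genotype shift between the distal part and the rest is read from these counts and medians.

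The window at Pole was that from 147.0 to 147.5 Mb, at the start of the last block. Rb1L/L libraries listed 0, 0, 0 and 4 sites there, against 7, 9, 4 and 5 in Rb1+/+ libraries. As shares of trans sites these were 0%, 0%, 0% and 0.0618% in Rb1L/L libraries, against 0.220%, 0.221%, 0.0562% and 0.0573% in Rb1+/+ libraries, so the groups overlapped. The log2 fold change was -3.04 ± 1.55 (SE; limma, adjusted p = 0.896). It depends on the constant added where libraries listed no site, and was -2.37 with an added constant of 1. The 4 Rb1L/L sites alone would not have passed the filter of at least 8 sites. The window passed through its Rb1+/+ libraries, so its contrast is no support for a genotype difference.

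At Cdca3 the windows with the smallest p among those higher in Rb1L/L started at 100, 58.5 and 58.0 Mb. The window from 100 to 100.5 Mb had 7, 27, 11 and 0 sites in Rb1L/L libraries, against 0, 0, 0 and 0 in Rb1+/+ libraries. It passed the filter of at least 8 sites through Rb1L/L libraries alone, so its contrast is no support for a genotype difference. From 58.5 to 59.0 Mb, Rb1L/L libraries listed 7, 37, 16 and 10 sites, against 0, 0, 0 and 14 in Rb1+/+ libraries. The neighbouring window from 58.0 to 58.5 Mb had the same order, with sites in all 4 Rb1L/L libraries and in 1 Rb1+/+ library. The fitted log2 fold changes were 3.33 ± 1.53, 3.45 ± 1.68 and 3.45 ± 1.68 (SE; limma, adjusted p = 0.749 each). They depend on the added 0.5 where libraries listed no site.

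Those lower in Rb1L/L at Cdca3 started at 108.5, 108.0 and 129.0 Mb. The window from 108.5 to 109.0 Mb had 0, 33, 33 and 20 sites in Rb1L/L libraries, against 19, 29, 26 and 26 in Rb1+/+ libraries. As shares of trans sites all 4 Rb1L/L libraries, from 0% to 0.118%, lay below all Rb1+/+ libraries, from 0.121% to 0.165%. The log2 fold changes were -1.51 ± 0.673, -1.39 ± 0.649 and -0.51 ± 0.245 (SE; limma, adjusted p = 0.749 each). Without the Rb1L/L library of pair 1, which listed no site from 108.0 to 109.0 Mb, the first was -0.37 and the second -0.22. With deposited values under 0.01 the window at 129.0 Mb had -1.57 and that at 108.5 Mb -0.81 (limma, adjusted p = 0.889 each). The window from 129.0 to 129.5 Mb was the one of these 3 in the distal part.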

How the data were processed

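Per the labels' protocols, fibroblasts were crosslinked in 1% formaldehyde, cut with HindIII, ligated, cut with NlaIII and amplified by inverse PCR. For each library the authors deposited restriction sites with a p-value or q-value (which of them is not marked) and significant regions as coordinates. Per the submitters' processing notes, positions are mm9. Aligner, caller and their settings were not given in the sources used here.

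Sites were counted with pandas 2.3.3 and numpy 2.4.6 (Python 3.11.15). Shares use a library's trans sites, without chromosome 5 for Pole and chromosome 6 for Cdca3. Intervals of 95% invert the exact tests. Windows of 500 kb were fitted with limma 3.58.1 (R 4.3.3, eBayes with trend) and adjusted over all trans windows, after the script was tested on simulated data. Named windows were the 5 highest means on each side of 120 Mb, up to 3 per direction and viewpoint by smallest unadjusted limma p, and the 3 longest empty stretches. Same-numbered deviations did not all correlate above 0.1, so the main tests did not pair libraries across genotypes. At Cdca3 these correlations were all positive, and pairing was run as an alternative. Alternatives varied sites, boundary, window length, filter, added constant, replicates and pairing. The chromosome, boundary and lists were chosen with earlier results of these data known.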

Additional observations from a re-analysis of the deposited data

Results flagged for a closer look

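Of 80 groups of 4 libraries examined, 9 held a library whose gap to the nearest other exceeded Dixon's critical share of the range, where chance gives about 1 in 20 for continuous values. In 5 of the 9 the other 3 libraries were all at 0, which makes the flag automatic, so that rate does not apply to them, and most of the windows were chosen for their contrast or their high mean. In Pole Rb1L/L the library of pair 4 had 0.108% of its trans sites from 84.0 to 84.5 Mb and 0.0618% from 147.0 to 147.5 Mb, and the other 3 had 0 in both windows. In Pole Rb1+/+ the library of pair 1 had 0.220% from 58.0 to 58.5 Mb, against 0 to 0.0281% in the others. The Pole Rb1+/+ library of pair 4 had 0.0458% from 100 to 100.5 Mb, against 0 in the others.

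In Cdca3 Rb1L/L the library of pair 1 had a chromosome 4 share of 8.67%, against 6.47% to 6.74% in the others. The same library had 0 sites from 108.0 to 108.5 Mb, against shares of 0.114% to 0.127% in the others, and 0 from 108.5 to 109.0 Mb, against 0.0994% to 0.118%. In Cdca3 Rb1+/+ the library of pair 4 had 0.0512% from 58.0 to 58.5 Mb and 0.0652% from 58.5 to 59.0 Mb, against 0 in the others. No cause was tested for any of these.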

How the results depend on the processing

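No genotype comparison passed its threshold under any alternative run (without pair 1 or with the pairs as a block it could not have). In the main tests, too, an adjusted pass was out of reach for a single comparison. Limma called 0 chromosome 4 windows at both viewpoints in every setting. With deposited values under 0.01, the genotype difference in the chromosome 4 share reversed to 0.290 points at Pole and -0.174 at Cdca3, and the excess of Pole over Cdca3 in the distal share of trans sites grew to 1.41 points and passed unadjusted (exact p = 0.0312), in the same direction as the 0.819 points of all sites. With the boundary at 110 Mb or 130 Mb the distal share at Cdca3 was 71.7% or 50.3%. The causes were not tested. Leaving out 1 library or pair gave differences from -0.0657 to 0.710 (chromosome 4 share, Cdca3 genotypes), -4.16 to 2.24 (region cover, Pole genotypes), 0.865 to 1.37 (chromosome 4 share, Pole minus Cdca3), -2.02 to 4.49 (distal share of chromosome 4 sites, Pole minus Cdca3) and -16.3 to 1.84 (distal share of chromosome 4 sites, genotype by viewpoint). They also gave -1.70 to -0.421 (chromosome 4 share, Pole genotypes), -24.8 to -7.66 (distal share of chromosome 4 sites, Pole genotypes), -2.98 to -0.913 and -0.500 to -0.0316 (distal share of trans sites, Pole and Cdca3 genotypes), 0.404 to 1.10 (the same share, Pole minus Cdca3) and -3.06 to -0.628 (the same share, genotype by viewpoint). Same-numbered libraries had correlations of deviations from -0.0468 to 0.166 at Pole, of mixed sign. At Cdca3 they ran from 0.0394 to 0.154, all positive and each the highest for its Rb1L/L library. The main genotype tests did not use the pairs. With the replicate block the Cdca3 windows standing unadjusted came to 7, 5 higher and 2 lower, and the genotype differences, such as -7.80 and 7.24 points, kept their values with sign-flip p no lower than 0.125, the smallest that 4 pairs allow. Without chromosomes 5 and 6 in either denominator, chosen after seeing the data, the chromosome 4 share was 1.13 points higher at Pole. Without depth, a site missing from a list cannot be told from a contact that was not sampled.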
